A study of Mus musculus with 6 samples.

Results

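The probes described here are the genomic-interval probes of the array: the non-control probes that the array design names not by a gene but by a stretch of the mouse genome (assembly mm9), with the suffix F or R for the strand whose transcripts they detect. The rule uses the name alone and no measured value, and 3 names of 13 probes lack the suffix. There were 16194 such probes among the 55681 distinct non-control probes of the array (29.1%), and they fell under 4610 strand-specific interval names of 34298 names in all. The arrays held RNA of mouse organoids grown from epithelial stem cells of the esophagus, labelled squamous, or of the stomach, labelled columnar. Each tissue had 3 arrays, labelled with the numbers 1, 2 and 4, which are read here as mouse numbers. Neither the labels nor the study's methods state that a number stands for the same animal in both tissues. All cultures were untreated controls at passage 0 and were harvested on day 8, except the stomach culture of mouse 4, which was harvested on day 7. The study's methods list wild-type C57BL/6 females beside Cre reporter strains, of adult and for some experiments embryonic age, and the labels do not give the strain, sex or age of these mice. The stomach cells came from glands of the corpus. Stomach organoids grew with WNT3A and R-spondin1 conditioned media and gastrin, which the esophagus medium lacked, and the esophagus medium held forskolin. Tissue, culture medium and, for mouse 4, day of harvest therefore cannot be told apart.

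Long intergenic noncoding RNAs are transcribed from DNA between protein-coding genes, and many are capped, spliced and polyadenylated like messenger RNAs without encoding a protein. The intervals from which such RNAs arise were first mapped largely by chromatin, as a promoter mark followed by a mark of a transcribed body outside known genes. As a class these RNAs are known for low abundance and for expression in few tissues. Some act on the gene beside them and others act elsewhere in the nucleus or cytoplasm, and for most intervals no function is known. Labelling here primed from poly(A), so RNAs without a tail were poorly sampled.

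The labels were checked against cell type markers. Of 6 esophageal squamous markers, 5 were higher in esophagus, among them Krt5, a keratin of basal squamous cells, by 11.93 on the log2 scale. For Trp63, the transcription factor of squamous stem cells, 3 of 4 probes were above background on no stomach array and at least 49.6-fold to 299-fold higher in esophagus, and the probe with the highest mean value was lower by 1.22. All 8 columnar stomach markers were higher in stomach. None of 8 fibroblast and smooth muscle markers was called, with a summed level (log2 of the summed intensities of the list) of 7.87 to 8.41 in esophagus and 8.04 to 8.12 in stomach, and Vim, Pdgfra and Myh11 were above background on no array. That level was 12.37 to 14.90 and 13.55 to 14.07 for 5 immune markers, of which Itgam was called higher in stomach and Ptprc was above background on no array, and 8.75 to 9.33 and 8.92 to 9.03 for 3 endothelial markers, none called, with Cdh5 on no array. Their part in the results below was not tested. The software marked 45.5% to 51.1% of non-control spots per array as well above background, and no spot was saturated. Pearson correlations over interval probes ran from 0.952 to 0.976 within a tissue and from 0.904 to 0.930 between tissues.

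The interval names covered 3543 intervals. Of these, 1067 carried a name on both strands and 2476 on 1 strand, with 2321 forward and 2289 reverse names. A name had 1 to 10 probes (median 3), and 690 names had a single probe. Overlapping intervals on 1 strand merged into 3365 loci. The intervals were 62 to 7128487 bases long with a median of 10676, but the probes of a name sat close together: they spanned a median of 396 bases, and 500 bases or less for 57.5% of the names with more than 1 mapped probe. A result for an interval is thus a result for a short stretch of it. All probes were 60 bases long. The files gave no coordinates for 118 of them, and 8 of 16076 mapped probes lay outside the interval they were named for. A probe of a named gene lay inside the interval for 27.4% of names, on the same strand for 18.1% and on the opposite strand for 12.6%, so the name of the class is a property of the array design and not of current annotation.

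The 6 probes that were higher in esophagus and are shown first carry the largest differences in that direction among those that share no long stretch with any gene probe on the array, with each interval name entered by its called probe of highest mean signal. Sequences are given 5′ to 3′ as in the array files, with mm9 coordinates, and the strand is that of the name.
chr3:93571389-93571448 forward: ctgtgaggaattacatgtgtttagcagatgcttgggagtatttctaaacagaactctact
chr13:41345201-41345260 reverse: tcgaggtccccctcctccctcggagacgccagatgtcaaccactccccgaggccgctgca
chr1:175706660-175706719 reverse: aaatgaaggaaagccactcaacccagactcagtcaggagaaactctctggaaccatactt
chr13:90249182-90249241 reverse: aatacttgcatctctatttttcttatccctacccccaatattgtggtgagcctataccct
chr1:175655046-175655105 reverse: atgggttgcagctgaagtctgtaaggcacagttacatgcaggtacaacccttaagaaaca
chr1:195332754-195332813 reverse: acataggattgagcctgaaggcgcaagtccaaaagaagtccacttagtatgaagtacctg

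The next 6 are the counterparts that were higher in stomach, again 5′ to 3′. None of them shares a stretch with a gene probe, and the last lies in an interval next to Snrpn, an imprinted gene for a spliceosome protein.
chr12:109619601-109619660 forward: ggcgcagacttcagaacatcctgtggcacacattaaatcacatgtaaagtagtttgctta
chr9:20797994-20798053 reverse: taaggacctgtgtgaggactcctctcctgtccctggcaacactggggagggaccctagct
chr5:73772603-73772662 forward: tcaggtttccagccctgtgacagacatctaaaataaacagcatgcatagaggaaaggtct
chr6:131272359-131272418 reverse: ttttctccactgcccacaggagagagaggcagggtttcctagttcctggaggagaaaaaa
chr2:143990805-143990864 reverse: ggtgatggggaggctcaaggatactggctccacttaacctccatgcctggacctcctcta
chr7:67115008-67115067 reverse: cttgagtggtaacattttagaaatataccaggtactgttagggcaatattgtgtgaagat

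A last set is shown because its probes cannot be read as signals of an interval alone. Capitals mark the longest run, of at least 25 bases, that the interval probe has in common with a probe of the gene given here. The genes are, in this order, Crabp2, 1110002E22Rik for 2 probes, Gm3776, Rps16 for 2 probes, Rps29, Anxa11, Fkbp1a and Baz1a. The first 28 bases of the probe with the Rps29 run are shared with the probe of a transcript model and are not in capitals.
unmapped probe of chr3:87757295-87774970 forward: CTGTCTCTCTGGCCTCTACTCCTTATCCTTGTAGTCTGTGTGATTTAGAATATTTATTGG
chr3:137744343-137744402 forward: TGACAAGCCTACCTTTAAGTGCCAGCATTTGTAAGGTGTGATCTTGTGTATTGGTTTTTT
chr3:137744315-137744374 forward: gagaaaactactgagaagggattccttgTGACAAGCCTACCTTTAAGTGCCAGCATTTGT
chr9:78116894-78116953 forward: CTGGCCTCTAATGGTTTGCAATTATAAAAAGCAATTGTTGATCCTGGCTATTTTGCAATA
chr11:22686751-22686810 reverse: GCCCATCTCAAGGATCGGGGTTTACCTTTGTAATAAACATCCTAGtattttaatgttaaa
chr2:167106861-167106920 reverse: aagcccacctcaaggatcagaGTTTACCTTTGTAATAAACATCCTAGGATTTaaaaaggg
unmapped probe of chr7:108209996-108216032 reverse: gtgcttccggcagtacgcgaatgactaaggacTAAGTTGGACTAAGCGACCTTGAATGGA
chr14:26845986-26846045 forward: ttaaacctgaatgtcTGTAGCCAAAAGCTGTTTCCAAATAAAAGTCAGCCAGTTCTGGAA
chr14:77035245-77035304 reverse: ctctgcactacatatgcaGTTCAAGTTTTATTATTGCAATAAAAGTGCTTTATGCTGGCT
chr4:146531518-146531577 reverse: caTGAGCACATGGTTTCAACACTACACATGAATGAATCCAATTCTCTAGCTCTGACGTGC

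Interval probes were above background less often than gene probes. A probe was counted as well above background by the scanner software's own flag. On the esophagus arrays of mice 1, 2 and 4, 25.6%, 28% and 26.2% of interval probes passed, and on the stomach arrays 33.5%, 27.6% and 31.3%. The stomach array of mouse 2 was below the esophagus array of mouse 2, so the tissues overlapped. The means were 26.6% ± 1.25 (SD, n = 3) and 30.8% ± 2.97 (SD, n = 3), and the difference of -4.22 percentage points had p = 0.2 by a two-sided exact permutation test, whose smallest possible p with 3 arrays a tissue is 0.1. For probes of named genes the shares were 53.3% to 55% and 54.4% to 58.2%. A probe that passed on each of the 3 arrays of a tissue is called detected from here on, and such were 3468 interval probes in esophagus (21.4%, in 1749 names) and 3990 in stomach (24.6%, in 1960 names). All 6 arrays showed 3124 (19.3%), and 9540 (58.9%) were above background on no array. Named-gene probes gave 50.1%, 53.0%, 47.3% and 35.4% for the same measures. In 1 or both tissues 4334 interval probes were detected (26.8%), which touched 2090 names (45.3%).

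**Figure D1:**
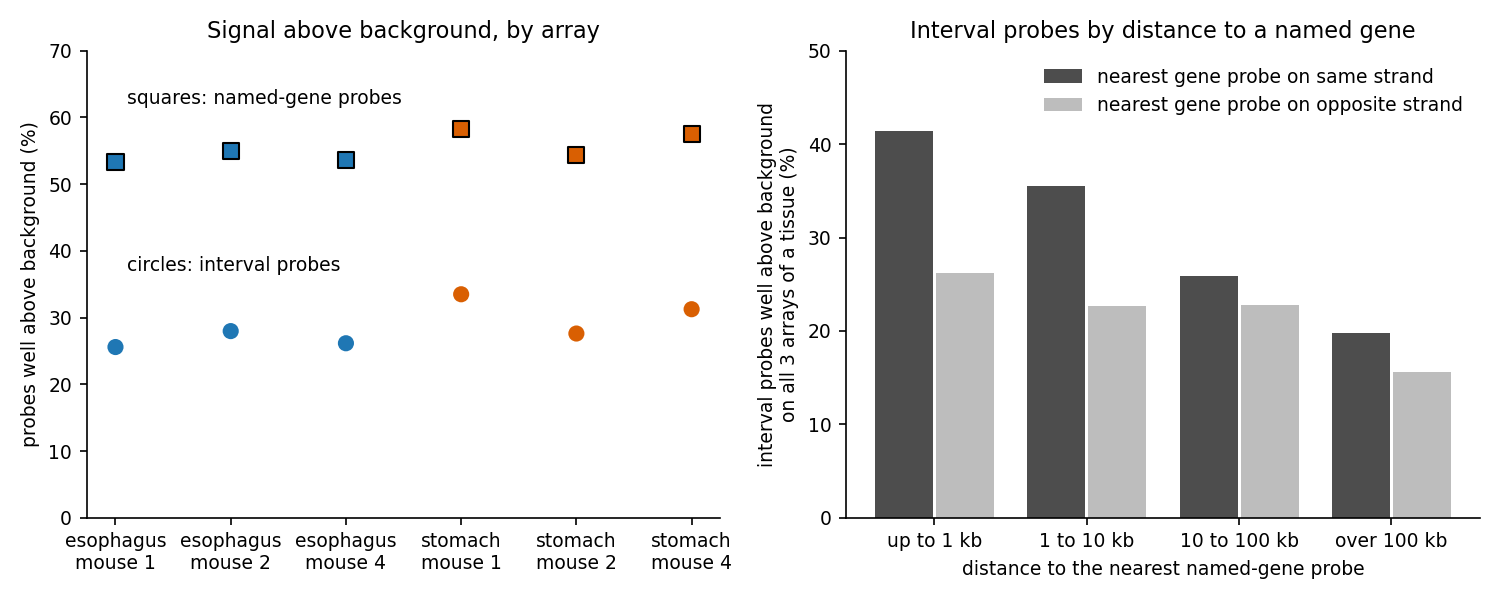
The left panel plots, for each of the 6 arrays, the percent of interval probes (circles) and of named-gene probes (squares) well above background, and the interval probes lie between 25.6% and 33.5% on every array. The right panel gives the percent of interval probes detected in a tissue by distance to the nearest named-gene probe, from 41.4% within 1 kb on the same strand to 15.6% beyond 100 kb on the opposite strand.

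The question the design poses is which intervals differ between squamous esophagus and columnar stomach organoids. A probe was called when its Benjamini-Hochberg adjusted p in limma was under 0.05 over all probes and its difference at least 1.5-fold. By this rule 771 interval probes were called (4.76%), against 12.0% of all probes on the array. In esophagus 389 were higher (2.40%, background 5.84%) and in stomach 382 (2.36%, background 6.15%). They fell in 444 names (9.63%) and 382 loci. For named-gene probes the share was 15.5%. Among detected probes 16.4% of interval probes and 26.8% of named-gene probes were called, and the difference between these shares was not tested. Of the called interval probes, 62 were not detected in a whole tissue. The median size of a called difference was 1.19 for interval probes and 1.47 for named-gene probes on the log2 scale. With a 2-fold minimum 265 and 239 were higher in esophagus and stomach, 504 in all (backgrounds 4.0%, 4.79% and 8.79%), and at an unadjusted p under 0.05 649 and 700 (backgrounds 9.28% and 8.85%, or 18.1% for either). Where a probe was above background on no array of a tissue, a bound is given for it alone, and ranges over several probes are of fitted differences, which are no bounds. The arrays of the tissues did not overlap for 3160 of 16184 interval probes (19.5%), against 28.6% over the array.

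The split of the calls between the tissues depended on the processing and on the arrays. With the software's background-subtracted intensities, scaled to each array's 75th percentile, 374 interval probes were higher in esophagus and 579 in stomach, 60.8% of calls against 49.5%, and the median difference of all probes was 0.195 against 0.0235. Without the stomach array of mouse 4 the counts were 397 and 513 (56.4% in stomach), without the stomach array of mouse 1 221 and 199, and without that of mouse 2 227 and 225.

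**Figure D2:**
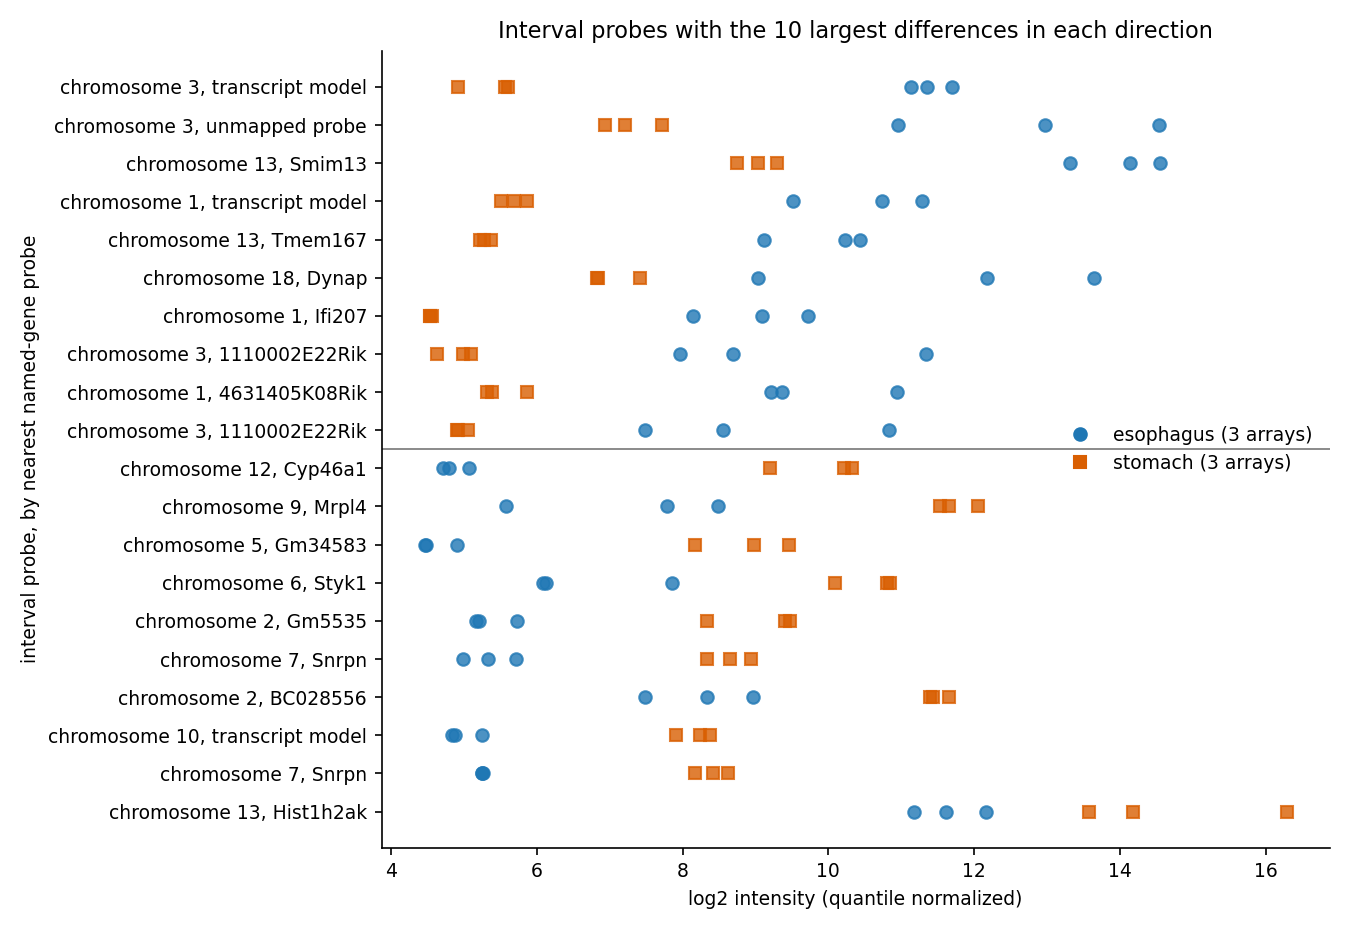
Each row is 1 interval probe, labelled by chromosome and nearest named-gene probe, with the log2 intensity of the 3 esophagus arrays (circles) and the 3 stomach arrays (squares). In all 20 rows the tissues do not overlap, with the upper 10 higher in esophagus and the lower 10 higher in stomach.

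With 1 probe taken per name, the called probe of highest mean signal, the largest difference in esophagus was at the chr3:93564825-93576725 forward interval, which has 1 probe (chr3:93571389-93571448). Its log2 values were 11.13, 11.70 and 11.36 in esophagus and 5.61, 4.92 and 5.56 in stomach. All esophagus arrays lay far above all stomach arrays, with a difference of 6.03 (SE 0.238, adjusted p = 2.55e-06 in limma). The nearest gene probe, for a transcript model 6591 bases away, was not called, and on the other strand of the interval 1 probe was called, by 1.17.

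The chr13:41337973-41379821 reverse interval showed how local such a signal was. Its probe at chr13:41345201-41345260 gave 14.14, 14.55 and 13.32 in esophagus and 8.75, 9.03 and 9.29 in stomach, a difference of 4.98 (adjusted p = 3.4e-05). The probes on either side of it were above background on no array, and 2 of the 10 probes of the interval were called, the other by 1.0. The nearest gene probe, of Smim13 on the opposite strand and 26662 bases away, differed by 0.75.

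Several esophagus intervals lay in the cluster of interferon-inducible genes on chromosome 1. In the chr1:175654606-175672031 reverse interval the probe at chr1:175655046-175655105 gave 9.72, 9.09 and 8.14 in esophagus and 4.53, 4.56 and 4.53 in stomach, where it was on no array above background. Esophagus was at least 19-fold higher (adjusted p = 0.000131), and all 5 probes of the interval were called, each on no stomach array above background and at least 4.9-fold to 19-fold higher. The nearest gene probe, for Ifi207, a member of the interferon-inducible p200 family, was 1383 bases away and was not called (adjusted p = 0.445). In the neighbouring chr1:175705225-175717250 reverse interval the probe at chr1:175706660-175706719 gave 11.28, 10.74 and 9.52 against 5.51, 5.69 and 5.86, a difference of 4.83 (adjusted p = 0.000166). Here the nearest gene probe, of a transcript model on the same strand, was also called, at least 6.01-fold higher in esophagus (adjusted p = 0.00106).

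At chr1:195332659-195335997 on the reverse strand the values were 10.94, 9.36 and 9.21 in esophagus and 5.87, 5.39 and 5.31 in stomach. The difference was 4.31 (adjusted p = 0.000501), all 3 probes of the interval were called (3.79 to 4.31), and 4631405K08Rik, 697 bases away, differed by 4.24. The chr13:90247709-90253992 reverse interval gave 10.23, 10.43 and 9.12 against 5.22, 5.28 and 5.37, a difference of 4.64 (adjusted p = 6.13e-05) at 1 of its 3 probes. Both signals were free of overlap between the tissues. The nearest gene of the second, Tmem167, encodes a Golgi protein. Its closest probe was not called (0.88, adjusted p = 0.0752), and another of its probes was called higher in esophagus by 0.86 (adjusted p = 0.024).

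The remaining 4 of the 10 esophagus probes shared sequence with gene probes. The first, an unmapped probe of chr3:87757295-87774970 forward, is identical to the probe of Crabp2, a cellular retinoic acid-binding protein. It gave 14.54, 12.97 and 10.95 in esophagus and 6.93, 7.21 and 7.72 in stomach, a difference of 5.53 (adjusted p = 0.00283), beside 5.43 for the Crabp2 probe. The other 3 unmapped probes of this interval differed by 3.10, 5.15 and 5.20, while its 1 mapped probe, at chr3:87772547-87772606, gave 15.80, 15.44 and 15.31 against 15.76, 15.18 and 15.46 and a difference of 0.05 (adjusted p = 0.93). This interval name thus held a large difference and none, depending on the probe.

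Near 1110002E22Rik, 2 overlapping forward intervals were named by the rule. The probe at chr3:137744343-137744402, identical to that of the gene, gave 8.69, 11.34 and 7.96 in esophagus and 5.10, 4.99 and 4.63 in stomach, at least 20.9-fold higher (adjusted p = 0.00754). The probe at chr3:137744315-137744374, which shares 32 bases with it, gave 8.55, 10.83 and 7.49 against 5.05, 4.92 and 4.90, at least 15.9-fold higher (adjusted p = 0.00959). Esophagus spread over more than 3 log2 units between mice at both. Both calls were lost when mean intensities and a larger background offset were used together (adjusted p = 0.0528 and 0.07 in limma). A larger offset alone was not tested.

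The last of the 10, at chr18:70400082-70404236 on the reverse strand, has 1 probe identical to that of Dynap, a gene for a dynactin-associated protein. It gave 12.18, 13.65 and 9.04 in esophagus and 6.82, 6.84 and 7.41 in stomach, a difference of 4.60 (adjusted p = 0.0221). The esophagus of mouse 4 was the lowest of its tissue, and the call was lost without the esophagus array of mouse 1 (adjusted p = 0.0579) and without the stomach array of mouse 1 or 2 (0.0929 and 0.0926). The other 2 probes of the name, dimmer on average, were above background on no stomach array. By their esophagus means they were at least 101-fold and 110-fold higher in esophagus (adjusted p = 0.00399 and 0.00278). Their esophagus values were 12.1, 13.46 and 8.74 and 12.13, 13.48 and 8.89, again lowest in mouse 4, whose own fold is smaller than these bounds.

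In stomach the largest difference by the same rule was at chr12:109619407-109619843 on the forward strand. The probe at chr12:109619601-109619660 gave 5.07, 4.71 and 4.80 in esophagus and 10.32, 10.21 and 9.20 in stomach. No esophagus array was above background, and stomach was at least 30-fold higher (fitted difference -5.05, SE 0.298, adjusted p = 2.46e-05). All 3 probes of this short interval were called, the others at least 6.25-fold and 9.42-fold higher in stomach. The nearest gene probe, of Cyp46a1, an enzyme that hydroxylates cholesterol, lay 22121.5 bases away, was above background on no esophagus and 2 stomach arrays, and was not called.

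A further 3 stomach intervals had a nearest gene probe that was above background on no esophagus array. At chr5:73771801-73772662 forward the values were 4.48, 4.91 and 4.46 against 8.98, 9.46 and 8.17, at least 15-fold higher in stomach (adjusted p = 9.34e-05), and 1 of 3 probes was called. At chr2:143988645-143993945 reverse they were 5.17, 5.21 and 5.72 against 9.41, 9.47 and 8.33, at least 13.0-fold higher (adjusted p = 0.000213), while the other 4 probes were not called. At chr10:8606683-8665783 reverse they were 5.25, 4.83 and 4.88 against 8.37, 8.24 and 7.91, at least 8.50-fold higher (adjusted p = 2.56e-05), with 3 of 5 probes called. The tissues did not overlap in any of the 3, and the nearest gene probes, 10138 bases or more away, were not called.

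Some stomach intervals were also above background in esophagus. The chr9:20784567-20799942 reverse interval gave 8.48, 7.79 and 5.58 in esophagus and 11.65, 12.05 and 11.53 in stomach, a difference of -4.46 (adjusted p = 0.00351) at 1 of 5 probes, while Mrpl4, a mitochondrial ribosomal protein gene, differed by -0.06. The chr2:145492995-145523670 reverse interval gave 8.97, 8.34 and 7.49 against 11.40, 11.66 and 11.43, a difference of -3.23 (adjusted p = 0.000614), and its other 4 probes were not called. In the chr6:131263850-131314850 reverse interval the values were 7.86, 6.12 and 6.08 against 10.85, 10.81 and 10.09, a difference of -3.90 (adjusted p = 0.00136). There the nearest gene probe on the same strand, of the kinase gene Styk1, was called the same way (-3.47, adjusted p = 0.00164), and 2 probes of the other strand were called the same way.

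Both intervals next to Snrpn, chr7:67111261-67120697 and chr7:67111261-67120645 on the reverse strand, were higher in stomach. The probe at chr7:67115008-67115067 gave 5.71, 4.99 and 5.33 in esophagus and 8.65, 8.33 and 8.94 in stomach, a difference of -3.29 (adjusted p = 7.2e-05). The probe at chr7:67114753-67114812 gave 5.26, 5.25 and 5.25 against 8.42, 8.17 and 8.62, at least 8.86-fold higher in stomach (adjusted p = 1.02e-05). The closest Snrpn probe was not called (adjusted p = 0.451) but of the other 2 Snrpn probes 1 differed by -2.90 and 1 was at least 7.13-fold higher in stomach (adjusted p = 3.5e-05 and 2.52e-05). The last stomach interval, chr13:21856097-21859200 reverse near the core histone gene Hist1h2ak, gave 12.16, 11.62 and 11.18 against 13.58, 14.18 and 16.29, a difference of -3.03 (adjusted p = 0.0195). It rested on the array set, since the call was lost without the esophagus array of mouse 2 (adjusted p = 0.0635) or 4 (0.0537) or the stomach array of mouse 2 (0.0537).

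The 10 interval names with the highest mean signal on all 6 arrays were of another kind. None was called. At chr9:78107225-78118850 forward the probe, identical to that of Gm3776, gave 16.99 ± 0.163 in esophagus and 17.31 ± 0.163 in stomach (SD, n = 3), a difference of -0.32 (adjusted p = 0.29). The chr11:22681800-22707775 and chr2:167085700-167117795 reverse probes share 45 and 31 bases with the probe of Rps16, a ribosomal protein gene on another chromosome, and differed by 0.02 and 0.09 (adjusted p = 0.953 and 0.826). For B4galt5, a galactosyltransferase gene near the second, the difference was -4.72. The unmapped probe of chr7:108209996-108216032 reverse shares 28 bases with Rps29, another ribosomal protein gene, and differed by -0.15.

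Of the others, the chr19:5801802-5802597 reverse probe lay 6297 bases from the probe of NEAT2, an older name of the nuclear noncoding RNA Malat1, and gave 16.27, 16.27 and 15.64 in esophagus and 16.88, 17.06 and 15.89 in stomach. The tissues overlapped there, with a difference of -0.55 (adjusted p = 0.382). At chr9:78104935-78116974 forward the values were 16.24, 15.80 and 15.56 against 16.86, 16.52 and 16.46, a difference of -0.75 with adjusted p = 0.0634, or 0.0389 with the mouse as a block. The other 4 bright probes, on chromosomes 1, 6 and 17, differed by 0.08 to 0.45 with adjusted p of 0.31 or more. Of the 60 interval probes with the highest mean signal, 13 shared a run with a gene probe, as described further below.

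Tissue-restricted intervals were defined by the flags, as detected in 1 tissue and above background on no array of the other. In esophagus there were 85 such probes (0.525%) in 50 names and 47 loci, and in stomach 274 (1.69%) in 219 names and 202 loci. With 1 array left out the rule asked for fewer arrays, so these counts could not fall. The first was 143 without the esophagus array of mouse 4. The second was 446 and 444 without the stomach array of mouse 2 or 4. Named-gene probes gave 1.35% and 2.52%. Of the esophagus-restricted probes 75 were called and of the stomach-restricted probes 131. Over all interval probes 4.76% were called, and over all probes of the array 12.0%. The rule picked the restricted probes by flags of the same arrays, so their calls and bounds describe the sets and test nothing. The bound on the fold difference had a median of 2.89-fold in the esophagus set and 1.52-fold in the stomach set. At 2-fold or more were 69 and 66 probes and at 5-fold or more 22 and 12, with highest values of 110-fold and 30-fold. The bounds of the sets rest on different floors, so they were not compared. The lowest flagged values were 4.49 to 4.95 on the stomach arrays and 4.75 to 5.13 on the esophagus arrays. By these bounds many of the stomach-restricted probes lay just over the background limit. For 2 of them no bound above 1 could be given.

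Beyond the intervals already named, the chr17:56687541-56694631 reverse probe gave 9.55, 8.98 and 8.21 in esophagus and 5.24, 5.25 and 5.34 in stomach. It was at least 12.5-fold higher in esophagus (adjusted p = 0.000184), with Safb2, a nuclear matrix-binding protein gene, as nearest gene 8889 bases away. The chr19:19005109-19008657 reverse probe gave 8.38, 8.91 and 7.47 against 4.92, 4.71 and 5.33, at least 9.12-fold higher (adjusted p = 0.000704), 1685 bases from Rorb, a nuclear receptor gene. Neither had a stomach array above background. Among stomach-restricted intervals, both called probes of chr13:97700327-97700876 forward were at least 5.46-fold and 4.44-fold higher in stomach (adjusted p = 0.00029 and 2.66e-05), near the glycosyltransferase gene Gcnt4.

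Within an interval the probes did not always behave alike. Of 3920 names with more than 1 probe, 440 had all probes detected, 1430 some and 2050 none. More than 1 called probe was found in 180 names, and in 174 of these all called probes had the same direction. In 72 names all probes were called. Joint calls were less common the farther apart 2 consecutive probes of a name lay, measured between midpoints. Where 1 probe of a consecutive pair was called, the other was called in 61.0% of cases up to 100 bases apart, 44.6% from 100 to 1000 bases and 28.3% beyond 1000 bases. When both were called their directions matched in 202 of 205, 67 of 68 and 15 of 16 pairs.

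There were 6 names that held called probes of both directions, picked after their values were seen. In the chr1:182686731-182709331 forward interval the probe at chr1:182687369-182687428 gave 11.22, 11.38 and 11.17 in esophagus and 10.14, 9.64 and 10.43 in stomach, a difference of 1.19 (adjusted p = 0.00998). The next probe, at chr1:182687489-182687548, gave 6.0, 5.40 and 5.96 against 6.99, 7.04 and 7.40, a difference of -1.36 (adjusted p = 0.00483). In the chr7:16584852-16657252 reverse interval 2 directly adjacent probes were higher in esophagus by 2.56 (adjusted p = 0.000227) and in stomach at least 2.06-fold (adjusted p = 0.0352). The chr18:36072785-36076426 forward interval had a probe higher in esophagus by 2.57 (adjusted p = 0.00681) and another, 5 bases away, at least 6.17-fold higher in stomach (adjusted p = 0.000343). Whether these probes read different RNAs or the same RNA was not tested.

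Of the 1067 intervals with probes on both strands, both strands were detected in 369 (34.6%), the forward strand alone in 175, the reverse strand alone in 227 and neither in 296. A call on any strand was found in 231 and on both in 29. In 24 of the 29 all called probes had the same direction, 11 higher in esophagus and 13 in stomach. At chr2:174088550-174109425, around Nespas, an imprinted antisense RNA of the Gnas locus, the fitted differences of the called probes were -1.79 to -0.90 on the forward and -2.16 to -1.64 on the reverse strand. The Nespas gene probe itself was above background on no array and was not called (-0.07, adjusted p = 0.829). At chr10:9322308-9332183, near Samd5, the called interval probes differed by -1.45 to -0.89 on the forward and -1.64 to -1.34 on the reverse strand. At chr1:162965309-162970704, which holds Gas5, a host gene of small nucleolar RNAs, the forward probes were called by 0.96 to 1.15 and the reverse probe by 0.84, while the Gas5 gene probes differed by 0.26 to 0.52 and were not called.

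Opposite calls on the strands were found in 5 intervals. At chr15:61984389-62102500 around Pvt1, a noncoding RNA gene beside Myc, 1 of 7 forward probes was called, at position 62086046. It gave 7.84, 6.64 and 6.99 in esophagus and 8.56, 8.86 and 8.89 in stomach. The difference was -1.61 (adjusted p = 0.0103, but 0.0538 without the stomach array of mouse 2). The Pvt1 probe 3575 bases away went the same way (-1.16, adjusted p = 0.0389), the only called probe of 3 for that gene. The brightest Pvt1 probe differed by -0.74 and was not called (adjusted p = 0.389), and the remaining Pvt1 probe was above background on no array. On the reverse strand 1 of 10 probes was called, at position 62050056. Its values were 5.62, 5.50 and 5.60 against 5.13, 4.92 and 4.67, at least 1.55-fold higher in esophagus (adjusted p = 0.0366). This call was lost without any of the 6 arrays (0.0519 to 0.116) and with the mouse as a block (0.0693).

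At chr1:74084292-74138492, 1 of 5 forward probes was called, at position 74115646. It gave 6.96, 6.55 and 6.48 in esophagus and 8.09, 9.03 and 7.64 in stomach. The difference was -1.59 (adjusted p = 0.0213, lost without the esophagus array of mouse 2 or 4 or the stomach array of mouse 1). Of 5 reverse probes 2 were called, at positions 74103774 and 74103947. They were at least 2.01-fold and 2.02-fold higher in esophagus (adjusted p = 0.00929 and 0.0138, the second lost without the esophagus or the stomach array of mouse 2). The nearest genes, both higher in esophagus, were Rufy4 (2.56) and Tns1, a focal adhesion gene whose closest probe was at least 2.75-fold higher. At chr19:61226425-61270975, 1 of 2 forward probes and 1 of 5 reverse probes were called, at positions 61261185 and 61243470. They gave -1.08 and 1.05 (adjusted p = 0.038 and 0.0492). Each call was lost without 5 of the 6 arrays, and the second also with the mouse as a block (0.0667). The chr4:155560050-155570900 interval lies between Agrn, a basement membrane proteoglycan gene, and the interferon-induced Isg15. There 2 of 5 forward probes were called. They gave -0.66 (adjusted p = 0.0387, 0.0900 with the mouse as a block, and lost without 5 of the 6 arrays) and a bound of 2.17-fold higher in esophagus (adjusted p = 0.0113, lost without the stomach array of mouse 1 or 2). Among 4 reverse probes 1 was called, by 1.82 (adjusted p = 0.00408).

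The array held 100 pairs of interval probes that are exact reverse complements at the same position, a direct comparison of the strands that was made after the values were seen. Both strands were detected in 9 pairs, 1 strand in 32 and neither in 59. A single strand was called in 5 pairs and both in 2. The 3 pairs below are printed because the values of the same bases on their strands are given next, with 1 strand called in 2 of the pairs and both, in the same direction, in the pair on chromosome 3. Each sequence is given 5′ to 3′.
chr14:26842200-26842259 forward: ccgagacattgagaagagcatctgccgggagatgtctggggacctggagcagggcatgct
chr14:26842200-26842259 reverse: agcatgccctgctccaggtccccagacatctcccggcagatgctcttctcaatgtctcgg
chr3:30049010-30049069 forward: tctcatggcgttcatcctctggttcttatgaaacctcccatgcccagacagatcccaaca
chr3:30049010-30049069 reverse: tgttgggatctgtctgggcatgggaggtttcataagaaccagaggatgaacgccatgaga
chr5:108539135-108539194 forward: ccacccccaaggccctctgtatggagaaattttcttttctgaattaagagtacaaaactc
chr5:108539135-108539194 reverse: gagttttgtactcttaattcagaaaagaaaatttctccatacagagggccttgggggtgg

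At chr5:108539135-108539194, near Mtf2, a Polycomb-associated gene, the forward probe gave 5.92, 5.56 and 5.62 in esophagus and 8.31, 7.66 and 8.87 in stomach, a difference of -2.58 (adjusted p = 0.000924). The reverse probe was above background on no array and was not called (adjusted p = 0.807). At chr14:26842200-26842259 the forward probe gave 5.86, 5.76 and 5.81 against 6.82, 7.37 and 7.29, a difference of -1.35 (adjusted p = 0.00213), and the reverse probe 6.53, 6.41 and 5.98 against 6.24, 6.01 and 6.43, a difference of 0.08. The first had no overlap between tissues and the second had full overlap. At chr3:30049010-30049069 the reverse probe gave 6.13, 6.35 and 7.03 against 9.76, 10 and 8.28, a difference of -2.84 (adjusted p = 0.00526), and the forward probe 4.84, 5.04 and 5.21 against 5.89, 6.33 and 5.49, at least 1.73-fold higher in stomach (adjusted p = 0.0476). Whether a difference differed between strands was not tested.

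**Figure D3:**
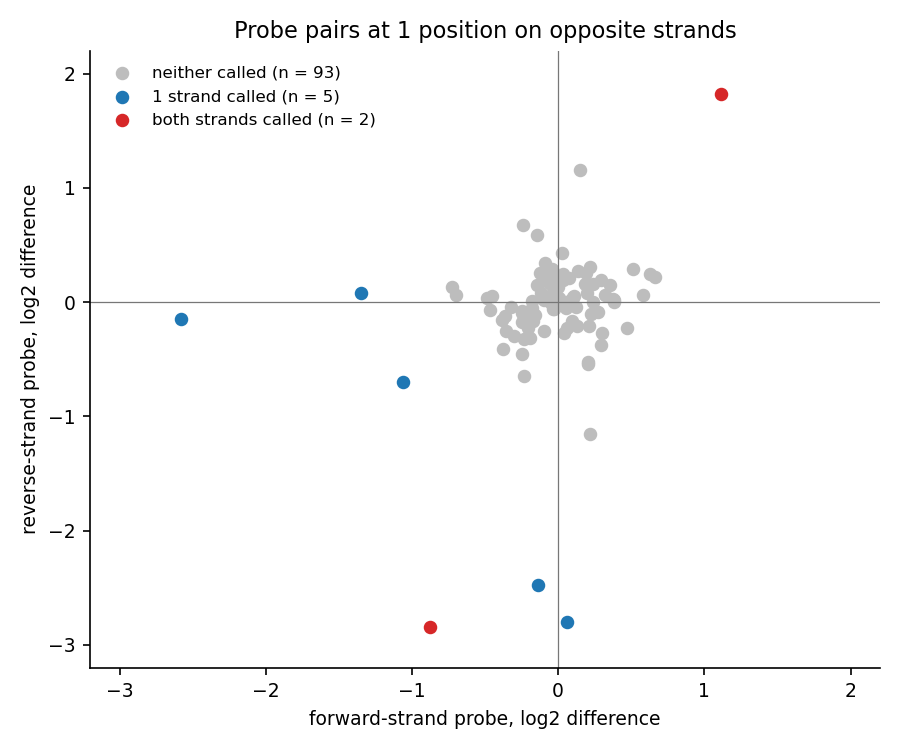
Each point is 1 of 100 pairs of exactly complementary probes, with the log2 difference (esophagus minus stomach) of the forward probe on the horizontal and of the reverse probe on the vertical axis. The 93 pairs with neither strand called lie between -1.16 and 1.15 on each axis, 5 pairs have 1 strand called, and the 2 pairs with both strands called share their direction.

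Merged into loci, most places with a call held a single called probe. Of the 382 loci with a call, 198 had calls higher in esophagus alone, 177 higher in stomach alone and 7 both, and 227 had a single called probe. Another 40 loci held 5 or more called probes each, 252 in all. These loci were picked by their number of calls, so the counts below are a description.

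The locus pair with the most calls lay on the reverse strand between probes of Mecom, a zinc finger transcription factor gene on the same strand, and was higher in stomach. At chr3:30032959-30080281, 14 of 15 probes were called (-2.84 to -1.02), and at chr3:30099759-30133959, 10 of 11 (-2.95 to -1.34). The probe at position 30124843 gave 8.09, 7.84 and 9.25 in esophagus and 11.53, 11.51 and 11.00 in stomach, a difference of -2.95 (adjusted p = 0.00134). The probe at 30077539 gave 6.88, 7.13 and 7.89 against 10.45, 10.12 and 9.66, a difference of -2.78 (adjusted p = 0.000732). Stomach was above esophagus on every array at both. With any 1 array left out, 12 to 15 and 9 to 11 probes of the pair were called. On the forward strand 1 probe of the first interval was called, at least 1.73-fold higher in stomach. Of the 3 Mecom gene probes, 2 were at least 3.19-fold and 3.02-fold higher in stomach (adjusted p = 0.00114 and 0.00688) and were above background on no esophagus array, and the other was above background on no array.

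Beside Bcl6, a transcriptional repressor gene with a probe higher in esophagus by 2.33 (adjusted p = 0.00178), the chr16:23992037-24001037 reverse interval held 6 called probes of 7. The probe at chr16:23994571-23994630 gave 8.06, 8.07 and 8.44 in esophagus and 4.99, 5.05 and 4.99 in stomach. It was at least 9.06-fold higher in esophagus (adjusted p = 9.6e-06), and the next 3 probes along the interval, also above background on no stomach array, had bounds of 6.45-fold, 7.21-fold and 7.04-fold. Another differed by 1.08 (adjusted p = 0.0253). The last, at chr16:23992840-23992899, gave 4.92, 4.97 and 4.83 against 6.11, 5.71 and 5.39, at least 1.68-fold higher in stomach (adjusted p = 0.0341). These last 2 calls were each lost without any of 5 arrays (0.0579 to 0.0996 and 0.0711 to 0.111). On the forward strand 1 of 7 probes was called, at chr16:23994835-23994894. It gave 6.33, 7.03 and 6.94 against 5.13, 5.56 and 4.85, a difference of 1.59 (adjusted p = 0.00528). It is by that last reverse probe that this interval counts among those with opposite strands.

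**Figure D4:**
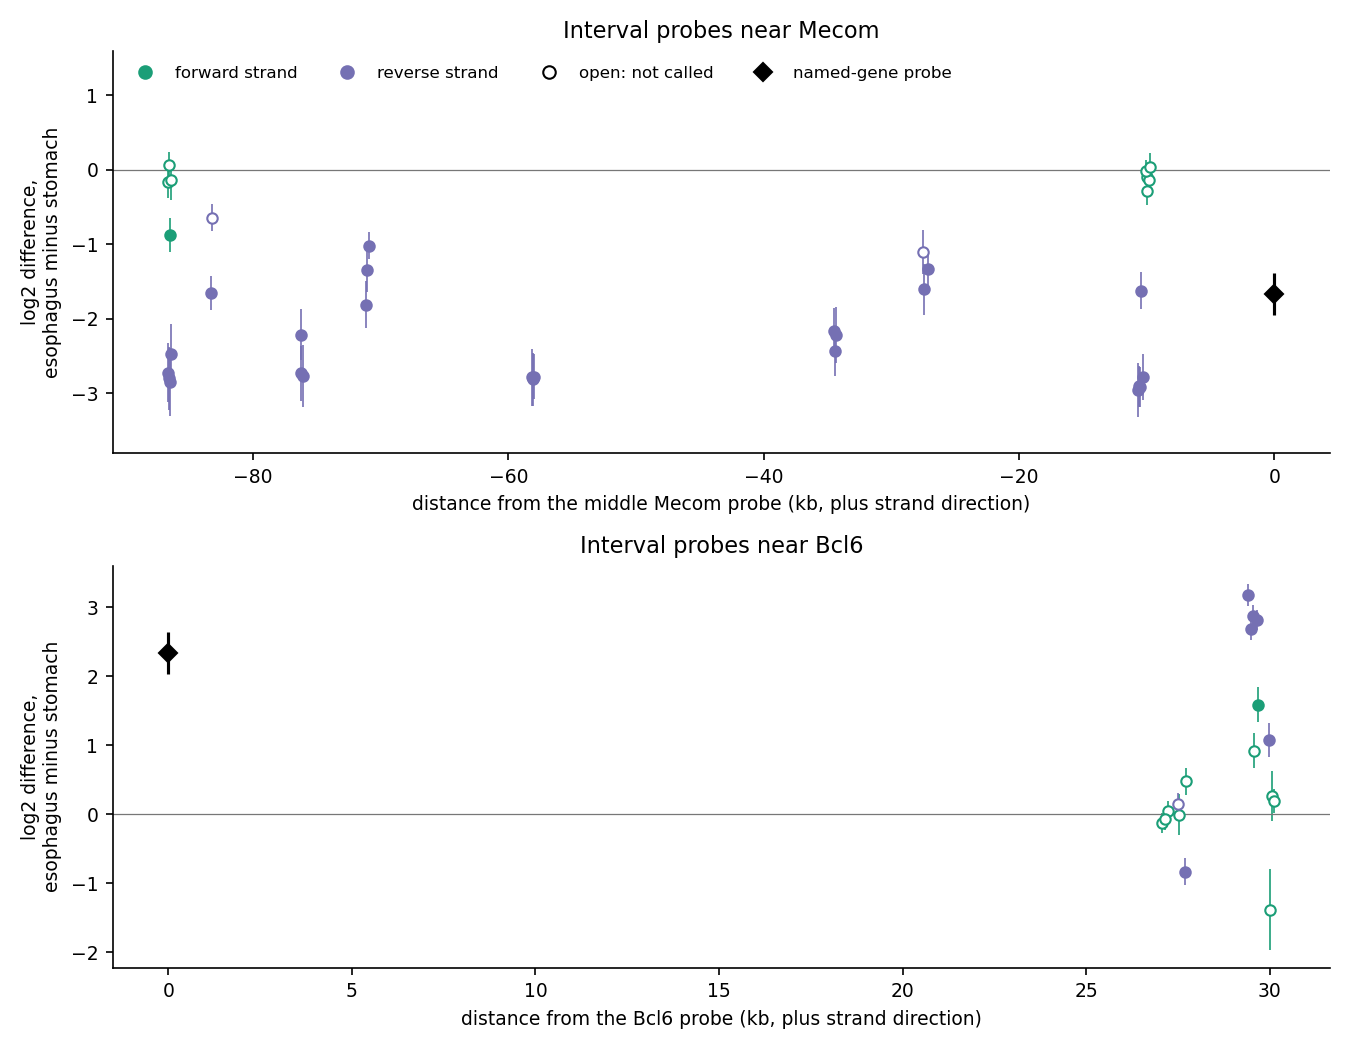
Log2 difference (esophagus minus stomach, fitted values, bars show the standard error) of interval probes by distance in kb from the middle Mecom probe (upper panel) and the Bcl6 probe (lower panel), colored by strand, with filled circles for called probes and diamonds for the gene probes. Near Mecom the called reverse probes run from -2.95 to -1.02 and the forward probes from -0.87 to near 0, and near Bcl6 the 4 adjacent reverse probes lie between 2.69 and 3.18.

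At chr3:146629425-146649125 on the forward strand all 7 probes were higher in stomach (-2.72 to -2.20), and all 7 remained called without any 1 array. The probe at 146646858 gave 7.40, 7.24 and 7.18 in esophagus and 9.80, 9.79 and 10.34 in stomach, a difference of -2.70 (adjusted p = 6.37e-05). The probe of Ttll7, a tubulin polyglutamylase gene on the same strand 3813 bases away, differed by -0.83 and was not called (adjusted p = 0.177). The chr14:26834450-26847000 forward locus had all 8 probes called (-2.09 to -1.04). One of them shares 45 bases with a probe of the annexin gene Anxa11, more than 100 kb away, which differed by -1.57.

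Loci higher in esophagus with all probes called were chr3:21964899-21974524 reverse (6 probes, 1.75 to 2.39, with 2810416G20Rik at 2.55), chr1:195327945-195336595 reverse (6 probes, 2.17 to 4.31), chr13:34693404-34717987 reverse (5 probes, 2.14 to 3.72) and chr10:83980790-83986015 reverse (5 probes, 1.09 to 1.49). In each of these 4 the count was the same without any 1 array. In the chromosome 3 locus 1 probe (2.36) is identical to the probe of 2810416G20Rik. All 5 probes of chr4:146507925-146532650 reverse were also called (1.36 to 1.52), but 1 or 2 remained without the stomach array of mouse 1 or 2 or any 1 esophagus array. The nearest gene of the chromosome 13 locus, Pxdc1, differed by 3.65 (adjusted p = 0.000613) at 20234 bases, and that of the chromosome 10 locus, Ckap4, a membrane protein gene of the endoplasmic reticulum, by 1.47. At chr10:83181374-83249918 forward, 8 of 13 probes were called (1.19 to 2.86) together with 1500009L16Rik (at least 2.58-fold higher). Other loci had calls in the direction of their nearest gene: 6 of 13 probes near Ikzf2, the transcription factor gene of Helios (0.86 to 1.37, gene 2.51), 6 of 8 near the chromodomain gene Cdyl2 (0.68 to 2.21, gene at least 2.04-fold) and 6 of 10 at Snhg18, a small nucleolar RNA host gene (0.82 to 1.26, gene 1.22). Called probes at Snhg18 with differences of 1.12 to 1.26 share 26 to 57 bases with that gene probe. Near Zbtb20, a zinc finger gene with probes called higher in stomach (-1.46 and -1.23, adjusted p = 0.0191 and 0.0237), 7 of 16 interval probes were called. These calls fell to 0 without the stomach array of mouse 1 or 2 and rose to 11 without that of mouse 4.

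Distance to the nearest named-gene probe was measured between probe midpoints for the 16076 mapped interval probes. The median was 13204 bases (quartiles 3347 and 36418), over 2142 genes, and 308 probes overlapped a gene probe. Detection was higher where the gene probe was on the same strand, and there it fell with distance at every step. On the opposite strand it also fell, except between 1 to 10 kb and 10 to 100 kb. It was 41.4% and 26.2% (same and opposite strand) within 1 kb, 35.5% and 22.7% from 1 to 10 kb, 25.9% and 22.7% from 10 to 100 kb, and 19.8% and 15.6% beyond. The share of interval probes called was 7.42% and 2.96%, 6.17% and 2.85%, 5.76% and 3.88%, and 4.23% and 2.99% in the same order. The nearest gene probes themselves were called at 11.9% to 17.8% in these 8 classes, and on the same strand their share was lowest within 1 kb. These shares are across probes that share intervals and arrays and were not tested.

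Of 767 called mapped interval probes, 480 (62.6%) had a nearest gene probe that was not called. In the other 287, in 111 loci and beside 101 genes, the directions matched in 266. Within 1 kb they matched in 65 of 65 on the same strand and 12 of 12 on the opposite strand, from 1 to 10 kb in 49 of 51 and 12 of 15, from 10 to 100 kb in 85 of 96 and 36 of 38, and beyond in 5 of 7 and 2 of 3. Among called interval probes, 15 had a run of 25 bases or more in common with a gene probe within 1 kb. The tally is not given without them. The 21 exceptions included chr1:169026196-169032664 forward, where a probe gave 6.31, 6.34 and 6.41 in esophagus and 7.11, 7.65 and 7.68 in stomach (-1.13, adjusted p = 0.00652), and a second probe -1.30. The probe of Fam78b, 7434 bases away on the same strand, was at least 13.6-fold higher in esophagus. At chr6:90848183-90861277 reverse 2 probes were higher in esophagus, at least 1.93-fold and by 0.94 on the log2 scale (adjusted p = 0.00728 and 0.0399), and the nucleoporin gene Nup210, 106864 bases away, was higher in stomach by 4.26. At chr13:49488457-49493732 a probe differed by -1.58 (adjusted p = 0.00657) and Bicd2, a dynein adaptor gene, by 1.74.

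Runs of sequence shared with gene probes were looked for after the bright probes had been seen. In all, 211 interval probes (1.30%) had a run of 25 bases or more in common with a named-gene probe, and 68 were identical over all 60 bases. Of these 211, 53.1% were detected, against 26.4% of the 15983 without such a run. Where the gene probe lay within 1 kb (174 probes) the share was 47.7%, where it lay farther away or on another chromosome (31 probes) it was 77.4%, and for 6 probes the distance is unknown. Of those 31, 6 were called, beside 22 of all 211 (10.4%), 4.69% of the interval probes without a run and 12.0% of all probes. In 17 cases the gene probe was called as well, always in the same direction. The chr14:77006215-77063293 reverse probe, with 42 bases of Fkbp1a, an immunophilin gene on chromosome 2, differed by -1.25 (adjusted p = 0.00662). The Fkbp1a probe with these bases differed by -1.41, and other Fkbp1a probes differed by -0.48 and -0.61 and were not called. The chr4:146507925-146532650 reverse probe, with 58 bases of Baz1a, a chromatin remodelling gene on chromosome 12, differed by 1.46 (adjusted p = 0.0214). The Baz1a probe with these bases differed by 1.37. Other Baz1a probes differed by 0.8, which was called, and by 0.37, which was not. The part that RNA of these genes had in the signals was not tested.

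Intervals near genes of the squamous and columnar lineages were looked at by the lists. Of 36 squamous genes, 10 had an interval probe within 100 kb. There were 76 such probes in 22 names, of which 14 were detected and 3 called, all higher in esophagus (3.95%, against 4.76% of all interval probes and a background of 12.0%), with a median difference of 0.08. One lay at Sox2, a transcription factor of foregut squamous cells: a probe of the interval named chr3:034856791-034869544 but mapped to position 34576423 gave 6.50, 6.34 and 6.55 in esophagus and 5.44, 5.44 and 5.34 in stomach. The tissues did not overlap (1.06, adjusted p = 0.00205), and Sox2, 25650 bases away, and its overlapping transcript Sox2ot differed by 1.87 and 1.56. The other 2 were in chr4:135136959-135139933 forward, near Grhl3, a transcription factor of epidermal barrier formation that differed by 4.27. The probe at 135139288 gave 5.60, 5.81 and 5.36 against 4.53, 4.56 and 4.72, at least 1.81-fold higher (adjusted p = 0.00678). The probe at 135139378 differed by 0.78 (adjusted p = 0.048), a call lost without the esophagus or the stomach array of mouse 1 or 2 (0.0924 to 0.182) and with the mouse as a block (0.0896). Of 42 columnar genes, 2 had interval probes within 100 kb, 6 in all. None of the 6 was detected or called.

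For context, 38 of 46 listed long noncoding RNA genes were on the array under a gene name. By the probe of highest mean signal 5 were called (13.2%, background 12.0%, and 15.5% for named-gene probes), and 11 had a called probe of any signal. H19, an imprinted RNA (3.34, adjusted p = 0.0108), and Sox2ot (1.56, adjusted p = 0.0143) were higher in esophagus, and Snhg11 (-3.57, adjusted p = 0.000175), Peg13 (-2.14, adjusted p = 0.00764) and Ftx, a gene of the X-inactivation center (-0.74, adjusted p = 0.0393), in stomach. Called were 2 of 6 H19 probes and 1 of 2 Ftx probes, while every probe of Sox2ot, Snhg11 and Peg13 was called. The median over the 38 was 0.002, beside 0.0235 over all probes and 0.0026 over interval probes.

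GC content and a short motif, neither of which the naming used, were compared with the readouts as a description. Interval probes had a median GC content of 45.0%, named-gene probes 41.7% and called interval probes 43.3%. Detection was 26.5% below 40% GC, 24.4% from 40% to 50% and 33.3% from 50% up, and the share called 5.19%, 4.80% and 4.12%. For named-gene probes in the same bins detection was 56.1%, 54.5% and 58.6%, and the share called 16%, 15.1% and 15.3%. The letters AATAAA, the common polyadenylation signal, were searched on the printed strand of each probe. They occurred in 3.92% of interval probes, 4.57% of detected and 5.97% of called ones, in 12.8% of named-gene probes and in 10.1% of all probes of the same length.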

How the data were processed

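Total RNA of 6 organoid cultures, extracted with TRIzol, was labelled with Cy3 by poly(A)-primed amplification and hybridized to single-color Agilent SurePrint G3 mouse arrays. The deposited scanner files hold spot and local background intensities, with flags (other) from Agilent Feature Extraction 11.5.1.1 and probe coordinates in mm9. The authors deposited log2 values that were background corrected and quantile normalized; background correction by normexp with offset 15 on median intensities gave the same values within a median of 0.00433. Empty cells were spots marked as outliers. These log2 values were averaged over the spots of a probe and used as deposited.

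In R 4.3.3 with limma 3.58.1, the 2 tissues were compared with lmFit and eBayes, without a block. The fit held all 6 arrays and all 55681 distinct non-control probes. The study's methods state limma with a p-value under 0.05 and a 1.5-fold minimum, and name no block or adjustment at that step. Here p-values were Benjamini-Hochberg adjusted over all probes and the threshold was 0.05. Differences are esophagus minus stomach. A probe below background on all 3 arrays of a tissue has only a bound there, so its fold was computed from the mean of the bright tissue against, on each array of the other, the higher of the probe's own value and the lowest value of any probe with the software's flag. Mean signal was used to choose probes, not to set the abundance of one RNA against another. Tables were made in Python 3.11.15 with pandas 2.3.3 and scipy 1.17.1.

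The labels give the same 3 numbers in both tissues, read here as mice, and the mouse block pairs the arrays by these numbers. Deviations from the tissue means over interval probes correlated at 0.0136, 0.0483 and -0.0122 between arrays of the same mouse and at -0.0783 to 0.0595 between arrays of different mice. The esophagus array of mouse 4 was alone on a second slide, so slide as a block equals leaving that array out. Cultures of a tissue came from 3 animals, and 3 arrays a tissue limit the precision.

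Named probes were, by rule, the 10 interval names in each direction with the largest difference among called probes detected in the higher tissue, 1 probe a name (highest mean), the 10 names with the highest mean signal, called probes within 100 kb of listed lineage genes, and intervals with opposite calls on their strands. The members, gene lists and rules were chosen with earlier results of these data known. Analyses of loci, complementary pairs and shared sequence were added after values were seen. Gene names are those of the array files; the RefSeq table of another assembly (GRCm38.p6) served for names alone, and its promoter and miRNA sequences were not used here. Alternatives were another background correction, another scaling, a filter on dim probes, a variance trend, a mouse or slide block, other call and detection rules, and leaving out each array.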

Additional observations from a re-analysis of the deposited data

How the results depend on the processing

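No interval probe called both as reported and under an alternative that refitted all probes changed sign. Counts are given as higher in esophagus and higher in stomach, 389 and 382 as reported. This order turned with mean intensities and an offset of 16 together (382 and 385) and with a variance trend (376 and 396). It also turned with the mouse block, at an unadjusted p and without the stomach array of mouse 4 (397 and 513). Background-subtracted intensities with 75th percentile scaling turned it as well. The counts became 245 and 213 with a normexp offset of 50 on mean intensities, 649 and 700 at an unadjusted p under 0.05, and 225 and 225 when interval names were counted. The stomach count became 579 with the software's background-subtracted intensities and 75th percentile scaling, and 239 with a 2-fold minimum. Leaving out 1 array at a time gave 221 to 420 and 199 to 513. With the mouse as a replicate block the counts were 346 and 349; of 40 named called probes 36 kept their call under the block, and apart from the 4 lost calls and 1 gained call given in the report it changed no other call of a named probe. Between 28 and 40 of the 40 kept their call under any other alternative, with all 40 kept with mean intensities and an offset of 16. The detected shares of 21.4% and 24.6% became 25.8% and 30.5% when 2 of 3 arrays sufficed, 37.8% and 43.3% with the software's flag for a positive and significant signal, and 22.4% to 23.2% and 25% to 28.1% with 1 array left out. The tissue-restricted counts of 85 and 274 became 340 and 1090 with 2 of 3 against at most 1 of 3 arrays, and 90 to 143 and 298 to 446 with 1 array left out. The median distance of 13204 bases became 33085 with gene probes on the same strand and 18220 with names in the RefSeq table. The share of names with a gene probe inside, 27.4%, became 18.1% and 12.6% when the same or the opposite strand was required. Where the alternative was another call or detection rule or another unit, its construction sets the change. Detected shares and tissue-restricted counts also could not fall with 1 array left out, since the rule then asked for fewer arrays. For the intensities, the offset, the scaling and, in the counts of calls, the arrays left out, the cause was not tested. Signal over background limits the dim probes, since 58.9% of interval probes were above background on no array.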
